A study of Arabidopsis thaliana with 21 samples.

Results

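Arabidopsis thaliana rosettes that had been cold acclimated and then returned to the warm for 4 h (deacclimated, DEA 4 h) were compared with rosettes of plants that had never been in the cold (non-acclimated, NA), with 3 arrays in each group. The comparison gives the transcripts by which a plant at this early point of deacclimation differed from a plant with no history of cold. All probe sets that carried 1 gene in the platform annotation, or in the study's own annotated list of regulated transcripts, were taken as members. There were 17404 of them, out of 31329 probe sets analysed and 38408 in the table of values. The platform annotation named 16722 members. The other 682 were named only through the study's list, which holds transcripts that its authors had called against cold acclimated plants, so this is a selected set and it is counted apart below. The members carried 17142 different loci.

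All plants were of accession Columbia-0 (Col-0) and grew in soil in a greenhouse (20 °C days, 18 °C nights), with at least 200 µmol of light per square metre and second, for 3 weeks under 8 h days and for 1 week under 16 h days. The DEA 4 h plants then spent 3 days in a growth cabinet at 4 °C under 16 h days and 90 µmol of light and were harvested 4 h after their return to the greenhouse, whereas the NA plants were harvested from the greenhouse without any cold. Each array held RNA from a pool of 10 complete rosettes, and the 3 arrays of a group came from independent biological replicates. The series also has arrays of cold acclimated plants harvested without warming (CA) and of plants deacclimated for 2, 6, 12 and 24 h, which are used below only to place the values at 4 h. Temperature and light both rose at the transfer to the greenhouse, and their parts in any difference cannot be told apart. The hour of harvest of the NA plants was not given in the sources used here, so hour of day and treatment cannot be told apart for transcripts with a daily rhythm.

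As background, cold leads Arabidopsis to express COLD REGULATED (COR) genes, many of them under C-REPEAT BINDING FACTORs (CBFs), whose products protect membranes and proteins during freezing, and warmth reverses this within days. The circadian clock of the plant is a loop of factors that peak at different hours, with the MYB-like factors CCA1 and LHY in the morning and others such as GI, ELF3 and FKF1 later in the day. Growth at warm temperature runs through PHYTOCHROME INTERACTING FACTORs (PIFs), auxin, gibberellin and brassinosteroids, and the early auxin response genes of the AUX/IAA, SAUR and GH3 families are commonly read as its transcript markers.

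The 6 arrays had medians between 8.14 and 8.27 on the log2 scale, and any pair from the same group correlated at 0.988 or more. The rosette transcript RCA, which encodes Rubisco activase, was abundant in both groups and differed by -0.06 (SE 0.07). EXPA7, a root hair expansin, stayed at 4.44 to 5.14 in the DEA 4 h arrays and 4.26 to 5.05 in the NA arrays. These are whole rosettes, so fewer cells of a type and less RNA per cell cannot be told apart. All levels below are normalised log2 values, and a difference is the DEA 4 h mean minus the NA mean, so that a positive difference means a higher level at DEA 4 h. SE is the standard error of the difference from a linear model over all 21 arrays, and adjusted p is its p-value after Benjamini-Hochberg adjustment over the 31329 probe sets. A transcript is said to have risen or fallen where the adjusted p was under 0.05 and the difference was beyond 1 in either direction.

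At this threshold 421 members rose and 587 fell at DEA 4 h, that is 2.42% and 3.37% of the members, against 2.2% higher and 2.88% lower among all probe sets analysed. Among the members named in the platform annotation, 328 rose and 478 fell (4.82% called, against 5.08% of all probe sets analysed). Of the 682 named only through the study's list, 93 rose and 109 fell, which is 29.6% of a set chosen for its regulation against CA. The members that rose had a median NA level of 7.27 and those that fell had a median NA level of 9.19, with 7.57 for all members. The NA level is also part of the difference, so a gap in this direction is partly built into the calls. A change of more than 4-fold was seen for 76 members that rose and 116 that fell, and of more than 8-fold for 18 and 29. The arrays of the groups did not overlap for 414 of the 421 members that rose and for 581 of the 587 that fell. The calls rest on the same arrays, so this separation follows largely from the call. Over all probe sets analysed, called or not, 35.2% did not overlap (21.1% higher and 14% lower at DEA 4 h). The median difference was 0.02 over the members, with the first and 99th percentiles at -1.77 and 1.49. For 13607 of the 16396 members that were not called (83%), the 95% interval of the difference lay within 1 on either side of 0. Of 190 loci with several probe sets, 17 were called on at least 1 of them and 12 on all, and 0 were called in opposite directions.

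**Figure D1:**
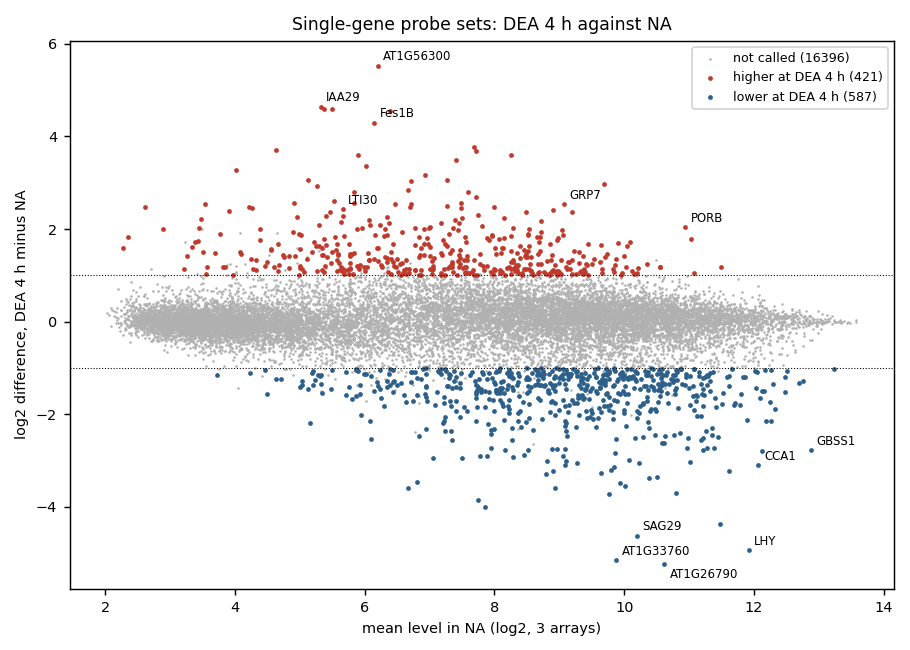
Difference between DEA 4 h and NA (y axis, log2) against the mean level in NA (x axis, log2, 3 arrays) for 17404 single-gene probe sets, with 421 called higher, 587 called lower and 16396 not called; dotted lines mark a difference of 1 in either direction. LHY, AT1G26790, AT1G33760 and SAG29 lie at the bottom among transcripts abundant in NA, and AT1G56300 lies at the top.

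The number of probe sets called against NA did not fall steadily over time. CA plants differed from the same NA arrays in 2474 of the 31329 probe sets (7.9%), and the DEA 4 h plants in 1591 (5.08%). The count was 1409 (4.5%) for the 2 h plants, 2060 (6.58%) after 6 h, 1440 (4.6%) after 12 h and 14 (0.0447%) once a full 24 h had passed. Against CA, the DEA 4 h plants differed in 1825 probe sets (5.83%). Only 51 probe sets (0.163%) were called between DEA 4 h and DEA 2 h and 15 (0.0479%) between DEA 6 h and DEA 4 h. These comparisons share arrays, so below the values of single genes are only set side by side. Among the genes of the lists described below 257 were measured and 82 called, and 54 of these 82 had been named only through the study's list. Each list count below stands beside 2.2% higher and 2.88% lower among all probe sets analysed. Of the members named only through the study's list, 29.6% were called.

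The transcript that rose most was AT1G56300, annotated as a protein with a DNAJ heat shock N-terminal domain. It lay at 11.99, 11.33 and 11.86 in the DEA 4 h arrays, against 6.57, 5.83 and 6.19 in the NA arrays, a difference of 5.53 (SE 0.31, adjusted p = 8.84e-09). Its mean was 9.93 in CA, 8.38 at 2 h, 12.35 at 6 h and 5.97 at 24 h, so the level of the 4 h plants was above both CA and NA. IAA29, a repressor of the AUX/IAA family, followed with 9.16, 11.17 and 9.54 at DEA 4 h, against 5.59, 4.63 and 5.74 in NA, a difference of 4.64 (SE 0.64, adjusted p = 9.59e-05). Even its lowest DEA 4 h array was more than 3 units above the highest NA array. MEE14 had 11.08, 11.37 and 10.38 in the DEA 4 h arrays and 6.47, 6.16 and 6.55 in the NA arrays (difference 4.55, SE 0.29, adjusted p = 2.33e-08). Fes1B, a homologue of the yeast nucleotide exchange factor of HSP70 chaperones, had 10.61, 10.67 and 10.05 at DEA 4 h against 6.62, 5.75 and 6.08 in NA, a difference of 4.30 (SE 0.22, adjusted p = 2.86e-09). Its CA mean was 7.20, much nearer to NA than to DEA 4 h.

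Further down the list of the 15 largest rises stood BBX17, a zinc finger factor of the B-box family, with 11.70, 11.95 and 10.76 in DEA 4 h arrays against 7.98, 7.13 and 7.97 in NA arrays (difference 3.78, SE 0.33, adjusted p = 1.16e-06). RTFL21, a small peptide of the ROTUNDIFOLIA4-like family, had 8.45, 9.0 and 7.53 at DEA 4 h and 4.93, 4.44 and 4.51 in NA (difference 3.70, SE 0.38, adjusted p = 5.77e-06). In both cases CA was close to NA, with means of 8.08 for BBX17 and 5.23 for RTFL21. MIOX2, a myo-inositol oxygenase that feeds inositol into the precursors of cell wall sugars, had 10.26, 11.75 and 10.66 at DEA 4 h, against 6.80, 8.20 and 7.20 in NA (difference 3.49, SE 0.52, adjusted p = 0.000198). MIPS2, an enzyme that makes the inositol phosphate from which inositol comes, went the other way, with 9.15, 8.92 and 8.63 at DEA 4 h against 11.35, 11.40 and 11.29 in NA (difference -2.45, SE 0.22, adjusted p = 1.45e-06). MIPS2 was chosen after its values were seen and MIOX2 for the size of its rise, so their opposite directions are no pathway result. NATA1, an N-acetyltransferase acting on ornithine and related amines, differed by 3.16 (SE 0.59, adjusted p = 0.00126), and it was still at a mean of 9.59 after 24 h, against 6.91, 5.85 and 8.03 in the NA arrays.

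Among the 15 were also loci without a gene symbol. AT2G39920 (difference 4.59, SE 0.27) and AT4G01985 (4.59, SE 0.48) were already high in CA, with means of 9.96 and 10.08 at DEA 4 h and 9.15 and 10.77 in CA. AT1G17665 had 9.52, 9.30 and 9.66 at DEA 4 h against 6.21, 5.64 and 5.83 in NA. Its mean was 10.13 in CA but 7.48 at 2 h. AT3G62550 (3.69, SE 0.36), AT4G16146 (3.60, SE 0.18) and AT3G47160 (3.37, SE 0.25) rose as well. AT2G15880, annotated as a leucine-rich repeat or extensin family protein, rose by 3.28 (SE 0.36), with 7.17, 8.21 and 6.52 in DEA 4 h arrays and 4.46, 3.69 and 3.91 in NA arrays. The 15 were picked from called members whose arrays did not overlap, so the separation of their groups was a condition of entry.

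**Figure D2:**
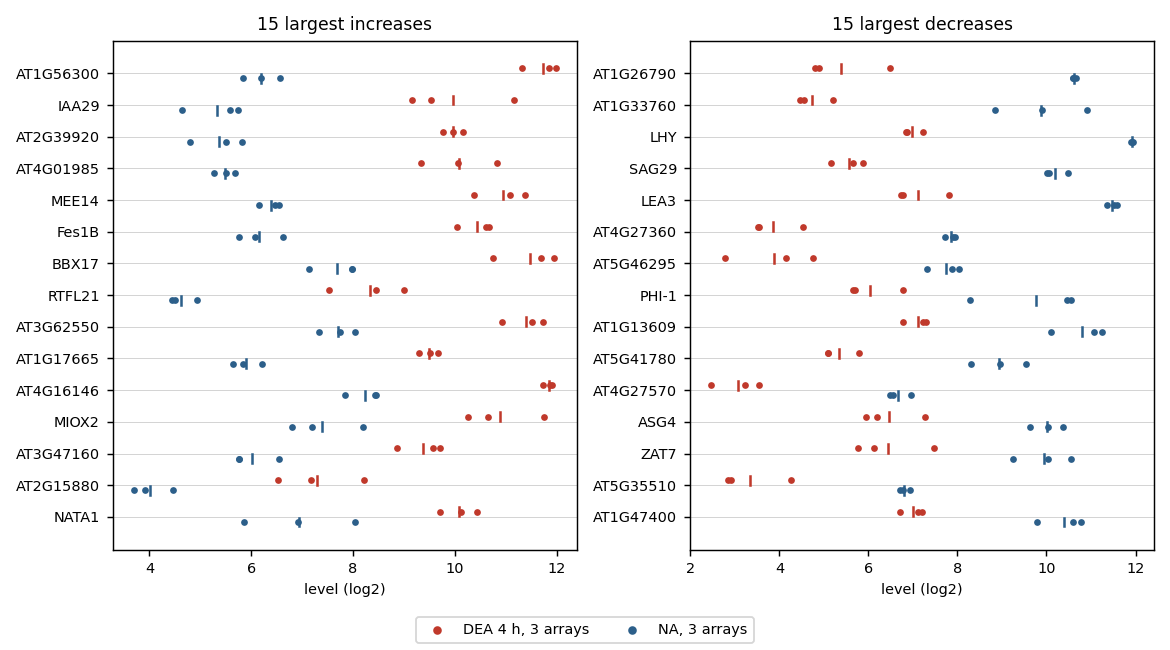
Levels (x axis, log2) in every DEA 4 h array and every NA array for the 15 members with the largest rise (left) and the 15 with the largest fall (right) among those called; each short vertical line is the mean of 3 arrays. Only members whose arrays did not overlap between the groups were eligible, so the groups are apart by choice. The NA arrays of AT1G33760 and PHI-1 are the most spread among the falls.

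The largest fall was that of AT1G26790, a Dof-type zinc finger factor, with 4.79, 4.88 and 6.48 in the DEA 4 h arrays against 10.66, 10.59 and 10.59 in the NA arrays (difference -5.23, SE 0.29, adjusted p = 8.84e-09). Its CA mean of 10.78 was close to NA. AT1G33760, annotated as a factor with an AP2 domain, had 4.46, 5.20 and 4.55 at DEA 4 h against 8.84, 9.90 and 10.91 in NA (difference -5.15, SE 1.04, adjusted p = 0.00221), and here CA was already at 4.10. LHY came next and is described with the clock. SAG29, a sucrose transporter of the SWEET family that rises in senescing and stressed leaves, had 5.66, 5.15 and 5.87 at DEA 4 h against 10.02, 10.49 and 10.05 in NA (difference -4.63, SE 0.30, adjusted p = 3.83e-08), with a CA mean of 6.36. LEA3, a late embryogenesis abundant protein, had 6.78, 6.73 and 7.82 at DEA 4 h and 11.58, 11.51 and 11.35 in NA (difference -4.37, SE 0.30, adjusted p = 6.19e-08). Its CA mean of 9.22 lay between the groups, so the transcript was low in the cold and lower still after 4 h of warmth.

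ZAT7, a C2H2 zinc finger factor of stress responses, fell to 7.47, 5.76 and 6.12 in the DEA 4 h arrays, against 9.24, 10.03 and 10.55 in the NA arrays (difference -3.49, SE 0.60, adjusted p = 0.000658). PHI-1, an EXORDIUM-like protein, had 5.66, 6.78 and 5.69 at DEA 4 h against 8.28, 10.46 and 10.55 in NA, a difference of -3.72 (SE 1.0, adjusted p = 0.0156). This call was lost when any of 4 arrays (DEA 4 h replicates 1 and 3, NA replicates 2 and 3) was left out, with adjusted p between 0.0511 and 0.067. Further loci without a symbol among the 15 largest falls were AT4G27360 (difference -4.00, SE 0.32), AT5G46295 (-3.86, SE 0.73), AT1G13609 (-3.70, SE 0.46), AT5G41780 (-3.60, SE 0.46), AT4G27570 (-3.59, SE 0.51), AT5G35510 (-3.46, SE 0.32) and AT1G47400 (-3.39, SE 0.33). AT1G13609 and AT1G47400 have near-identical neighbours with which their probe sets may share signal. The CA mean of AT4G27360, 7.75, was close to its NA arrays at 7.73, 7.91 and 7.95, as for AT1G26790.

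LHY, CCA1 and ASG4, morning factors of the clock family, were far lower in the 4 h plants. Of 14 morning MYB and LNK genes listed, 6 were measured, of which 3 fell and 1 rose, and the list's median was -1.90 against 0.03 over all probe sets. LHY lay at 7.22, 6.86 and 6.85 in the DEA 4 h arrays, against 11.89, 11.95 and 11.91 in the NA arrays (difference -4.94, SE 0.20, adjusted p = 5.4e-10). CCA1, its partner and close relative, had 8.77, 8.72 and 9.42 at DEA 4 h against 12.09, 12.00 and 12.13 in NA (difference -3.10, SE 0.28, adjusted p = 1.64e-06). ASG4, a MYB-like factor of the same family, had 6.20, 5.94 and 7.27 at DEA 4 h and 10.37, 10.04 and 9.64 in NA (difference -3.55, SE 0.35, adjusted p = 3.59e-06). All were still high in CA (means 11.46, 12.13 and 9.98) and were high again at 24 h (11.91, 12.16 and 10.74). The related factors AT4G01280 (difference -0.70, 95% interval -0.96 to -0.43) and AT5G52660 (-0.32, interval -0.57 to -0.07) were not called. EPR1, also known as RVE7, rose instead, with 9.75, 9.38 and 9.71 at DEA 4 h against 8.46, 8.16 and 8.22 in NA (difference 1.34, SE 0.23, adjusted p = 0.00076). The 4 called members of this list were all named only through the study's list.

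Day and evening components rose or did not pass. Of 24 listed, 6 were measured, 3 rose and 0 fell, while at an unadjusted p under 0.05 there were 5 in either direction and with a test against a difference of 0.5 (limma treat) 2. ELF3, a member of the evening complex, had 9.78, 9.80 and 9.73 in the DEA 4 h arrays against 7.53, 7.29 and 6.98 in the NA arrays (difference 2.50, SE 0.14, adjusted p = 8.84e-09). GRP7, an RNA-binding protein that is an output of the clock, had 11.60, 11.63 and 11.57 at DEA 4 h against 9.09, 9.01 and 9.13 in NA (difference 2.53, SE 0.11, adjusted p = 1.14e-09). All 3 that rose had been named only through the study's list, of which 29.6% was called, against 5.08% of all probe sets. ELF3 and GRP7 had already been higher in CA, with means of 9.48 for ELF3 and 12.12 for GRP7, and GRP7 was lower at 2 h (10.57) than at either CA or 4 h. FKF1, a blue-light receptor that acts in photoperiodic flowering, had 4.42, 4.48 and 5.10 at DEA 4 h against 3.34, 3.38 and 3.06 in NA (difference 1.41, SE 0.29, adjusted p = 0.00247) and reached a mean of 7.05 at 6 h. GI, which works with FKF1, differed by 0.81 (95% interval 0.40 to 1.23) and AT1G69570 by -0.62 (interval -1.15 to -0.10), neither called. CCL, a transcript with a daily rhythm chosen after its values were seen, had 12.75, 12.76 and 12.48 at DEA 4 h and 9.88, 9.29 and 9.90 in NA (difference 2.97, SE 0.21, adjusted p = 1.09e-07). The part of the hour of harvest in these differences was not tested.

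FT and SPL4, flowering regulators chosen after their values were seen, went in opposite directions. FT, the mobile signal that starts flowering, fell to 7.17, 7.45 and 7.59 in DEA 4 h arrays, against 8.74, 8.55 and 9.06 in NA arrays (difference -1.38, SE 0.27, adjusted p = 0.00159). Its CA mean, 8.72, was like NA. SPL4, a floral promoter, had 9.63, 9.70 and 9.13 at DEA 4 h against 7.75, 8.17 and 8.18 in NA (difference 1.45, SE 0.27, adjusted p = 0.00125), and its CA mean was 8.43.

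**Figure D3:**
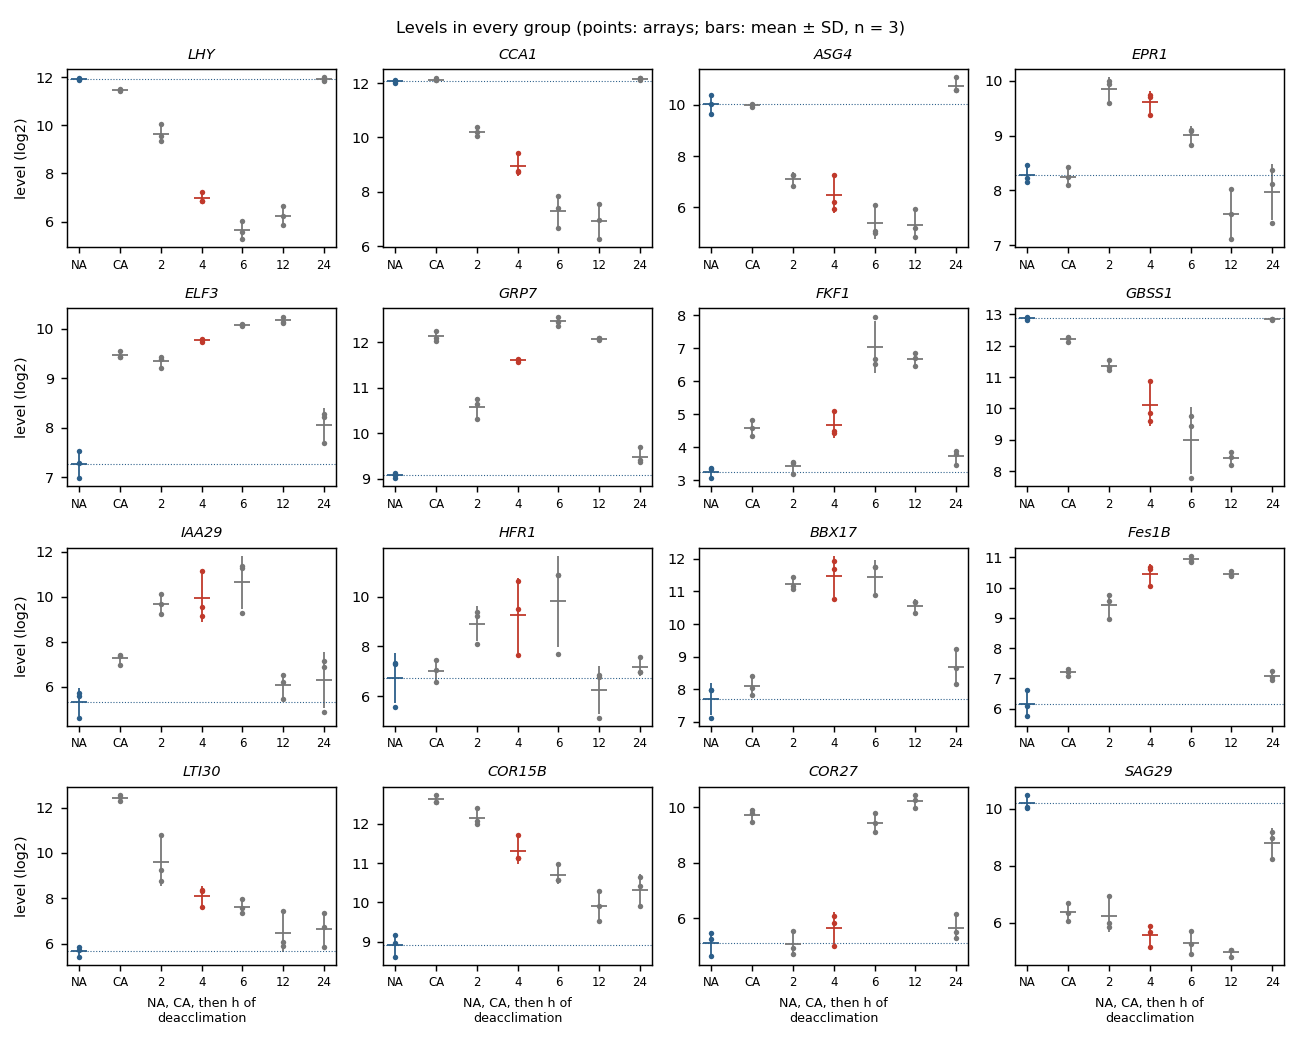
Levels (y axis, log2) of 16 members in NA, CA and after 2, 4, 6, 12 and 24 h of deacclimation (x axis, not to scale in time); points are arrays, bars the mean ± SD of 3 arrays, red marks DEA 4 h, blue marks NA and the dotted line is the NA mean. LHY, CCA1, ASG4 and GBSS1 lie below NA from 2 h to 12 h and are back near it at 24 h, while LTI30 and COR15B are below CA but still above NA at 4 h.

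Several genes of the cold regulon were still above NA after 4 h in the warm. Of 30 CBF and COR genes listed, 12 were measured, of which 6 rose and 1 fell, with a median of 0.86. Over all probe sets analysed 2.2% rose and 2.88% fell, with a median of 0.03. No CBF gene was among the 12, so the list does not cover the CBFs. The same 12 had a median of 3.54 in CA against NA. LTI30, a dehydrin, had 8.33, 8.37 and 7.59 in the DEA 4 h arrays against 5.84, 5.42 and 5.73 in the NA arrays (difference 2.43, SE 0.47, adjusted p = 0.00169), and its CA mean was 12.42. COR15B, a chloroplast protein that protects membranes in freezing, had 11.72, 11.13 and 11.12 at DEA 4 h against 9.17, 8.96 and 8.62 in NA (difference 2.41, SE 0.23, adjusted p = 2.36e-06), with 12.62 in CA. COR413IM1, a protein of the chloroplast inner envelope, had 11.68, 11.85 and 11.17 at DEA 4 h and 9.16, 9.43 and 9.03 in NA (difference 2.36, SE 0.21, adjusted p = 1.41e-06). KIN1 (2.01, SE 0.39) and COR15A (1.19, SE 0.18) rose too, as did AT4G33980 (2.37, SE 0.36), whose course dipped at 2 h (5.96) and was at 10.49 by 6 h. Not every cold gene was still high, and 5 of the 12 were not called. Among these were KIN2 (0.24, SE 0.22), GolS3 (-0.23, SE 0.29) and AT3G17520 (0.10, SE 0.27). COR47, a dehydrin, lay at 10.44, 10.48 and 10.11 in the DEA 4 h arrays and 11.05, 10.91 and 10.61 in the NA arrays, a difference of -0.51 (95% interval -0.98 to -0.04) that was not called, although CA was at 12.10.

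COR27, a cold gene that also represses clock targets, was at 6.10, 5.0 and 5.85 in the DEA 4 h arrays and 5.24, 4.64 and 5.46 in the NA arrays, which overlapped (difference 0.54, 95% interval -0.11 to 1.19). It had been at 9.73 in CA, was at 5.06 by 2 h and was back at 9.44 by 6 h. The only member of the list that fell was STZ, a C2H2 zinc finger repressor also known as ZAT10, with 7.47, 6.69 and 7.37 at DEA 4 h against 10.95, 9.35 and 10.40 in NA (difference -3.06, SE 0.60, adjusted p = 0.00177). STZ was also low in CA, at 8.20. DREB2C and ABF1 were chosen after their values were seen, for their rise. DREB2C, an AP2 factor of heat and drought responses, had 6.35, 6.20 and 6.36 at DEA 4 h against 4.03, 3.66 and 4.04 in NA (difference 2.39, SE 0.30, adjusted p = 4.07e-05). ABF1, a bZIP factor of abscisic acid signalling, had 10.14, 10.02 and 9.94 at DEA 4 h and 8.06, 7.53 and 7.62 in NA (difference 2.30, SE 0.17, adjusted p = 1.31e-07). Their CA means were 6.88 and 10.18. TAG1, the acyltransferase that completes triacylglycerol, differed by 2.45 (SE 0.14, adjusted p = 8.84e-09) and had a CA mean of 10.36, against 7.41, 7.61 and 7.45 in the NA arrays.

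**Figure D4:**
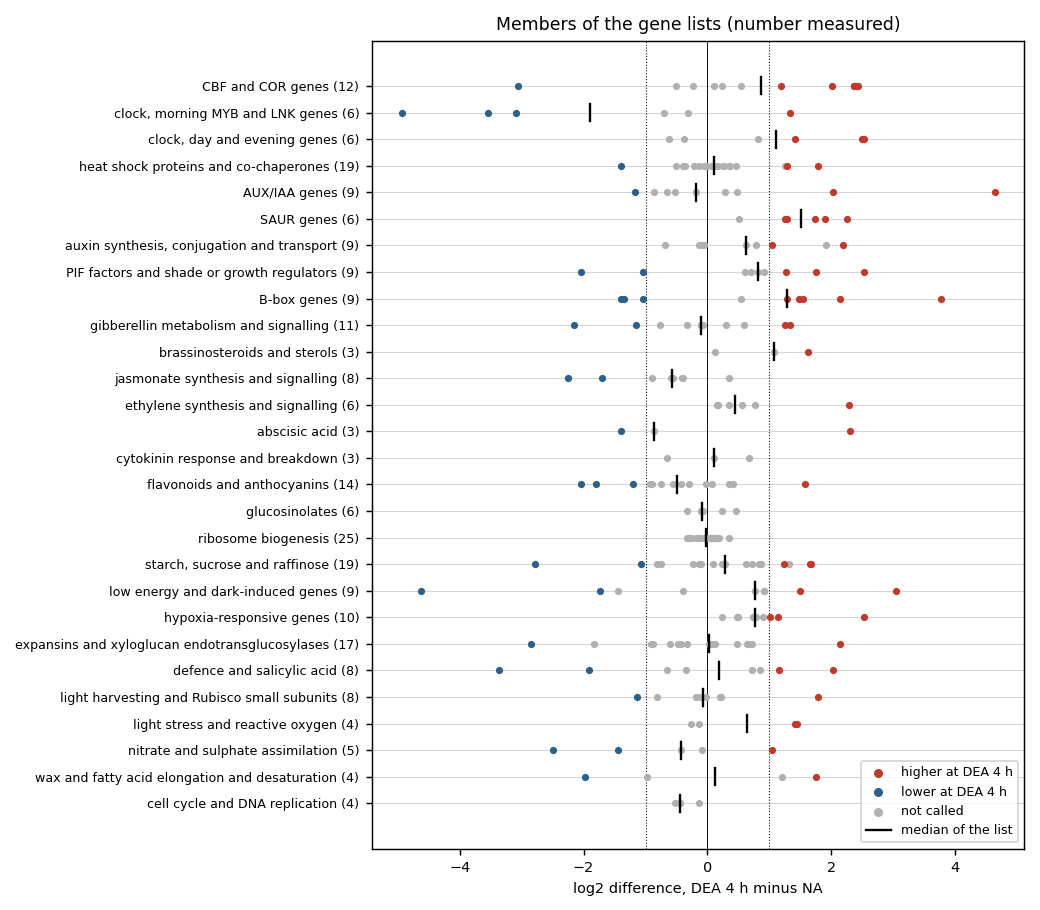
Difference between DEA 4 h and NA (x axis, log2) of every measured member of the gene lists with at least 3 measured members (y axis, number measured in brackets); red and blue points were called higher and lower, grey points were not called and black ticks are list medians. Morning clock genes and SAUR genes lie mostly on opposite sides of 0, and the 25 ribosome biogenesis genes cluster at 0.

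Some early auxin response transcripts rose. Of 28 AUX/IAA genes, 9 were measured, of which 2 rose and 1 fell. Beside IAA29, IAA5 rose, with 8.44, 9.0 and 8.97 in the DEA 4 h arrays against 7.36, 6.37 and 6.60 in the NA arrays (difference 2.03, SE 0.27, adjusted p = 7.27e-05). AXR3, which is IAA17, fell to 9.77, 9.79 and 10.40 at DEA 4 h, against 10.99, 11.16 and 11.32 in NA (difference -1.17, SE 0.18, adjusted p = 0.000216). IAA18 (difference -0.86, 95% interval -1.26 to -0.46) and IAA33 (-0.65, interval -1.38 to 0.08) were not called. Of 20 SAUR genes, which encode small growth-promoting proteins, 6 were measured, 5 of them rose and 0 fell, with a median of 1.51. By a test against a difference of 0.5 with limma treat 2 of the 6 were called, and 6 had an unadjusted p under 0.05. AT1G29460 had 7.32, 7.31 and 7.02 at DEA 4 h against 4.72, 4.58 and 5.59 in NA (difference 2.25, SE 0.37, adjusted p = 0.000429). AT2G18010 had 5.22, 5.27 and 6.52 at DEA 4 h and 3.41, 4.09 and 3.80 in NA (difference 1.90, SE 0.37, adjusted p = 0.00176). These calls held when any of the 6 arrays was left out. SAUR63 (1.28, SE 0.40) and AT1G29490 (1.73, SE 0.50) each lost the call when any of 4 arrays was left out. For SAUR63 these were DEA 4 h replicates 2 and 3 and NA replicates 1 and 2, with adjusted p between 0.051 and 0.174. For AT1G29490 they were DEA 4 h replicates 1 and 2 and NA replicates 2 and 3, with adjusted p between 0.0574 and 0.12. AT1G29430 to AT1G29490 are near-identical neighbours and their probe sets may share signal, and 5 of the 6 were named through the study's list. Of all members named only through that list 29.6% were called, against 5.08% of all probe sets analysed.

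Of 18 genes of auxin synthesis, conjugation and transport, 9 were measured, 2 rose and 0 fell, with 6 at an unadjusted p under 0.05 and 1 by limma treat. GH3.3, which conjugates auxin to amino acids, had 8.96, 10.02 and 9.73 in DEA 4 h arrays and 7.22, 7.74 and 7.19 in NA arrays (difference 2.19, SE 0.39, adjusted p = 0.000916). Its CA mean, 7.34, was at the NA level. ILL6, an amidohydrolase of the family that splits such conjugates, differed by 1.04 (SE 0.31, adjusted p = 0.0273) and lost the call without any of 4 arrays (DEA 4 h replicates 1 and 2, NA replicates 1 and 2), with adjusted p between 0.0539 and 0.124. YUC9, an auxin synthesis enzyme, was at 4.53, 7.97 and 7.15 in the DEA 4 h arrays and 4.45, 4.45 and 5.03 in the NA arrays, a difference of 1.91 (95% interval 0.19 to 3.62) that was not called. Its DEA 4 h replicate 1 lay within the NA range, and without that array the difference was 2.91 and the adjusted p 0.0161. WAG2, an AGC kinase that acts on auxin transporters, was chosen after its values were seen and had 5.56, 5.47 and 5.68 at DEA 4 h against 3.88, 4.10 and 4.23 in NA (difference 1.5, SE 0.35, adjusted p = 0.00638).

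Regulators of elongation and shade responses were split. Of 28 listed, 9 were measured, 3 rose and 2 fell, with a median of 0.81. HAT2, a homeobox factor induced by shade and auxin, rose to 9.23, 10.12 and 9.67 in the DEA 4 h arrays, against 8.33, 7.84 and 7.57 in the NA arrays (difference 1.76, SE 0.33, adjusted p = 0.00116). HFR1, an atypical bHLH protein that restrains PIFs, was at 7.65, 10.62 and 9.50 at DEA 4 h and 5.57, 7.32 and 7.29 in NA (difference 2.53, SE 0.82, adjusted p = 0.0414). Its arrays were spread in both groups, and the call was lost without any of 5 arrays, that is each but DEA 4 h replicate 1, with adjusted p between 0.0565 and 0.182. KDR, another small bHLH protein, differed by 1.27 (SE 0.42, adjusted p = 0.0439) and lost the call without any of 4 arrays (DEA 4 h replicates 1 and 2, NA replicates 2 and 3), with adjusted p up to 0.19. HYH, a bZIP factor of light responses related to HY5, fell to 9.08, 8.37 and 10.01 at DEA 4 h, against 11.10, 11.16 and 11.30 in NA (difference -2.04, SE 0.34, adjusted p = 0.000575), while CA was at 11.05. PIF7 differed by -1.04 (SE 0.23, adjusted p = 0.00481), and without DEA 4 h replicate 2, NA replicate 2 or NA replicate 3 its difference was between -0.93 and -0.88 and no longer beyond 1. PIF4, a central factor of growth in warmth, had 11.53, 11.55 and 10.89 at DEA 4 h and 10.45, 10.76 and 10.97 in NA, a difference of 0.60 (95% interval 0.23 to 0.97) that was not called, with a CA mean of 8.88.

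B-box factors, which are zinc finger proteins of light and clock signalling, were called in both directions. Of 31 listed, 9 were measured, 5 rose and 3 fell, and 8 of these 9 had been named only through the study's list. Of all members named only through that list 29.6% were called, against 5.08% of all probe sets analysed. BBX17 is given above. BBX13 had 9.52, 9.55 and 9.72 in the DEA 4 h arrays against 7.52, 7.20 and 7.64 in the NA arrays (difference 2.14, SE 0.18, adjusted p = 8.06e-07). LZF1 had 9.92, 9.72 and 10.35 at DEA 4 h and 8.42, 8.44 and 8.51 in NA (difference 1.54, SE 0.17, adjusted p = 8.6e-06). AT2G47890, a B-box protein without a symbol, rose by 1.48 (SE 0.20) but was below its CA mean of 10.27. STH fell to 9.94, 10.00 and 10.70 at DEA 4 h, against 11.84, 11.49 and 11.50 in NA (difference -1.40, SE 0.18, adjusted p = 5e-05), and BBX18 to 10.77, 10.40 and 11.67 at DEA 4 h, against 12.50, 12.12 and 12.25 in NA (difference -1.34, SE 0.32, adjusted p = 0.00684). The CA mean of STH was 12.44, above NA, and that of BBX18 was 12.74, with an adjusted p of 0.331 against NA. BBX15 differed by 0.54 (95% interval 0.19 to 0.90) and was not called.

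Gibberellin genes showed both directions. Of 29 listed, 11 were measured, 2 rose and 2 fell, with a median of -0.10. GA3OX2, an enzyme of the last step to bioactive gibberellin, fell to 6.52, 6.03 and 6.40 in the DEA 4 h arrays, against 8.74, 8.37 and 8.32 in the NA arrays (difference -2.16, SE 0.22, adjusted p = 4.76e-06). The gene ATGA2OX1, of a gibberellin-inactivating enzyme, fell by 1.16 (SE 0.28, adjusted p = 0.00767), and its difference came to -1.0 without NA replicate 3. GID1C, a gibberellin receptor, had 8.02, 8.02 and 7.89 at DEA 4 h against 7.05, 6.39 and 6.48 in NA (difference 1.34, SE 0.21, adjusted p = 0.00027). GASA6, a gibberellin-induced peptide, differed by 1.25 (SE 0.41, adjusted p = 0.045), and the call was lost without any of 5 arrays, that is each but DEA 4 h replicate 3, with adjusted p up to 0.181. The DELLA repressors GAI (difference 0.30, 95% interval -0.11 to 0.72) and RGL1 (-0.10, interval -0.48 to 0.29) were not called. Of 26 genes of brassinosteroids and sterols only 3 were measured, and of these SQE2, a squalene epoxidase of the sterol pathway, rose, with 8.71, 9.25 and 8.75 at DEA 4 h against 7.51, 7.42 and 6.89 in NA (difference 1.63, SE 0.22, adjusted p = 8.55e-05). BAS1, which inactivates brassinosteroids, was at 6.99, 8.16 and 7.20 at DEA 4 h and 6.96, 5.78 and 6.38 in NA (difference 1.07, 95% interval 0.26 to 1.88, not called).

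Cell wall loosening proteins were mostly not called. Of 36 expansins and xyloglucan endotransglucosylases, 17 were measured, 1 rose and 1 fell, and the median was 0.03, which is that of all probe sets. EXPA8, an expansin, had 9.68, 9.57 and 8.70 in the DEA 4 h arrays against 7.47, 6.65 and 7.40 in the NA arrays (difference 2.14, SE 0.43, adjusted p = 0.00227). XTH19, which cuts and rejoins xyloglucan, fell to 7.52, 6.71 and 6.78 at DEA 4 h, against 9.64, 10.19 and 9.73 in NA (difference -2.85, SE 0.59, adjusted p = 0.00269), and had a CA mean of 6.45. Its near-identical neighbour XTH18 had 7.38, 6.90 and 8.70 at DEA 4 h and 7.01, 10.86 and 10.64 in NA, so NA replicate 1 lay among the 4 h arrays and the difference of -1.84 (95% interval -4.44 to 0.75) was not called.

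Heat shock proteins were mostly not called. Of 37 heat shock proteins and co-chaperones, 19 were measured, 2 rose and 1 fell, with a median of 0.11. BAG6, a co-chaperone that binds calmodulin, had 7.31, 6.81 and 7.38 in DEA 4 h arrays against 5.16, 5.62 and 5.33 in NA arrays (difference 1.79, SE 0.21, adjusted p = 2.16e-05). Of the other called loci, AT5G37670 (1.28, SE 0.33) lost the call without DEA 4 h replicate 1 or NA replicate 2, with adjusted p of 0.0605 and 0.0776. AT4G21870 (-1.39, SE 0.39) lost it without any of 4 arrays (DEA 4 h replicates 1 and 2, NA replicates 2 and 3), with adjusted p up to 0.0899. HSFA2, the heat-induced factor that sustains the response, was at 9.06, 6.27 and 8.93 at DEA 4 h and 8.43, 8.04 and 7.88 in NA, a difference of -0.03 with a wide 95% interval of -1.35 to 1.29. Its DEA 4 h arrays lay on both sides of the NA arrays, its CA mean was 3.80 and its 2 h mean was 10.11. HSFA8 differed by 0.65 (interval 0.11 to 1.2) and was not called. Genes of folding in the endoplasmic reticulum were looked up after their values were seen. PDIL1-1, a protein disulphide isomerase, had 11.14, 10.88 and 11.28 at DEA 4 h and 9.86, 9.64 and 9.63 in NA (difference 1.39, SE 0.12, adjusted p = 6.26e-07). PDIL1-2 rose by 1.42 (SE 0.15) and PDIL2-2 by 1.67 (SE 0.23), so that 3 of the 4 PDIL genes measured rose. The HSP70 chaperone BIP1 rose by 1.07 (SE 0.25), and its difference was 0.99 without DEA 4 h replicate 1 and 0.98 without DEA 4 h replicate 3, no longer beyond 1. BIP3 differed by 1.26 (SE 0.44, adjusted p = 0.0601) and was not called. BZIP60, the factor that induces such enzymes, fell to 9.93, 9.49 and 10.02 at DEA 4 h, against 10.92, 10.85 and 11.10 in NA (difference -1.14, SE 0.19, adjusted p = 0.00042). Without DEA 4 h replicate 2 its difference was -0.98 and no longer beyond 1.

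Of 54 genes of starch, sucrose and raffinose metabolism, 19 were measured, 3 rose and 2 fell, and 4 of these 5 had been named only through the study's list. The 3 that rose act in starch breakdown. AMY3, a chloroplast alpha-amylase, had 11.26, 11.27 and 11.40 in the DEA 4 h arrays against 9.75, 9.66 and 9.53 in the NA arrays (difference 1.66, SE 0.09, adjusted p = 8.84e-09). DPE1, which handles maltotriose in the chloroplast, had 11.20, 11.14 and 11.03 at DEA 4 h and 9.64, 9.42 and 9.27 in NA (difference 1.68, SE 0.13, adjusted p = 3.56e-07). DPE2, which handles maltose in the cytosol, rose by 1.24 (SE 0.16, adjusted p = 4.66e-05). SEX1, the glucan water dikinase that opens the granule, lay at 11.13, 10.89 and 11.28 at DEA 4 h and 10.37, 10.29 and 10.03 in NA, a difference of 0.87 (95% interval 0.54 to 1.2) that did not reach the fold threshold, and the related dikinase PWD differed by 0.72 (SE 0.11), also not called. In CA the means of AMY3, DPE1, DPE2 and SEX1 were 11.00, 10.81, 11.13 and 11.57. GBSS1, the synthase that makes amylose, fell to 9.84, 9.60 and 10.88 at DEA 4 h, against 12.92, 12.89 and 12.83 in NA (difference -2.78, SE 0.37, adjusted p = 7.32e-05), with 12.21 in CA. The other starch synthesis genes measured, APL3 (0.83), APL4 (0.24), SBE2.1 (0.62) and SBE2.2 (-0.11), were not called. GolS2, a galactinol synthase, differed by -1.07 (SE 0.26, adjusted p = 0.00889), and it was no longer called without DEA 4 h replicate 3 (-0.75, adjusted p = 0.0507) or NA replicate 3 (-0.95, adjusted p = 0.0459). TPS11, of trehalose metabolism, was at 11.01, 11.98 and 9.89 at DEA 4 h and 10.09, 8.82 and 10.06 in NA (difference 1.31, 95% interval 0.33 to 2.29, not called), and without DEA 4 h replicate 3 its adjusted p was 0.0101.

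Transcripts known to rise at low energy or in darkness were called in both directions. Of 22 listed, 9 were measured, 2 rose and 2 fell. DYL1, a dormancy-associated protein, had 9.80, 10.72 and 8.76 in the DEA 4 h arrays against 6.56, 6.89 and 6.70 in the NA arrays (difference 3.04, SE 0.38, adjusted p = 4.55e-05), and its CA mean of 6.60 was at the NA level. AT4G27450 rose by 1.5 (SE 0.35) and had been far below NA in CA, at 6.28. DIN9, a phosphomannose isomerase, fell to 7.24, 6.77 and 7.38 at DEA 4 h, against 8.84, 8.77 and 9.0 in NA (difference -1.74, SE 0.21, adjusted p = 2.3e-05), and SAG29 fell as given above. AT1G80440 was at 8.35, 9.20 and 6.54 at DEA 4 h and 7.09, 6.45 and 7.79 in NA, which overlapped (difference 0.92, 95% interval -0.16 to 2.00), and without DEA 4 h replicate 3 the difference was 1.67 (adjusted p = 0.0125).

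Both nitrate reductase genes were lower in the 4 h plants. NIA1 fell to 8.62, 9.05 and 9.21 in the DEA 4 h arrays, against 11.82, 11.25 and 11.28 in the NA arrays (difference -2.49, SE 0.29, adjusted p = 1.76e-05). NIA2 had 8.47, 8.42 and 9.22 at DEA 4 h and 10.05, 10.10 and 10.29 in NA (difference -1.44, SE 0.22, adjusted p = 0.000266). AMT1;2, an ammonium transporter chosen after its values were seen, fell to 8.35, 7.50 and 9.50 at DEA 4 h, against 10.82, 11.27 and 10.49 in NA (difference -2.41, SE 0.52, adjusted p = 0.00364). Of the 29 nitrate and sulphate genes listed, 5 were measured, and the only one that rose was SULTR1;2, a sulphate transporter (1.05, SE 0.26), whose call was lost without DEA 4 h replicate 1 or NA replicate 2 (differences 0.94 and 0.77). NAS4, NAS3 and PYE, of iron homeostasis, were chosen after their values were seen, for their fall. NAS4, a nicotianamine synthase, had 8.50, 8.54 and 8.72 at DEA 4 h against 10.90, 10.38 and 10.12 in NA (difference -1.88, SE 0.27, adjusted p = 0.00013). PYE, a bHLH regulator of the iron deficiency response, had 7.57, 7.67 and 7.82 at DEA 4 h against 9.74, 9.48 and 8.87 in NA (difference -1.68, SE 0.19, adjusted p = 1.47e-05). NAS3 fell by 1.24 (SE 0.16).

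Most flavonoid genes were not called. Of 33 listed, 14 were measured, 3 fell and 1 rose, with a median of -0.48, against a median of 0.95 for the same genes in CA over NA. 4CL3, a coumarate ligase of flavonoid synthesis, fell to 8.57, 8.75 and 9.95 in DEA 4 h arrays, against 11.22, 11.17 and 11.01 in NA arrays (difference -2.04, SE 0.27, adjusted p = 7.32e-05). CHIL, a chalcone isomerase-like protein, had 9.90, 9.65 and 10.15 at DEA 4 h and 11.82, 11.72 and 11.56 in NA (difference -1.80, SE 0.19, adjusted p = 8.81e-06). UGT78D3, a flavonol arabinosyltransferase, differed by -1.21 (SE 0.32, adjusted p = 0.0141), and was no longer called without DEA 4 h replicate 1, DEA 4 h replicate 2 or NA replicate 3 (differences -1.14 to -0.80). MYBL2, a repressor of anthocyanin synthesis, rose to 9.69, 9.98 and 9.41 at DEA 4 h, against 8.73, 7.37 and 8.23 in NA (difference 1.58, SE 0.27, adjusted p = 0.000632). MYB12, an activator of flavonol synthesis, lay at 4.62, 5.63 and 4.70 at DEA 4 h and 6.11, 5.91 and 5.74 in NA, a difference of -0.93 (95% interval -1.54 to -0.32) that was not called, though it reached -1.26 (adjusted p = 0.00697) without DEA 4 h replicate 2. PHR1, here the photolyase that repairs ultraviolet damage, was chosen after its values were seen and fell to 9.13, 9.10 and 9.91 at DEA 4 h, against 10.96, 11.45 and 10.89 in NA (difference -1.72, SE 0.24, adjusted p = 0.00011).

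Transcripts of light capture and of protection differed in a few genes only. PORB, which makes chlorophyllide in the light, was chosen after its values were seen and had 13.05, 13.14 and 12.76 in the DEA 4 h arrays against 11.09, 10.92 and 10.82 in the NA arrays (difference 2.04, SE 0.12, adjusted p = 1.34e-08). Of 24 light harvesting and Rubisco small subunit genes, 8 were measured, 1 rose and 1 fell. LHB1B1, a light harvesting protein with near-identical relatives, had 13.01, 13.05 and 12.41 at DEA 4 h and 10.70, 11.42 and 10.98 in NA (difference 1.79, SE 0.21, adjusted p = 1.85e-05). AT1G76570, listed with them, differed by -1.14 (SE 0.20), which became -0.96 without DEA 4 h replicate 2. LHCB4.3 differed by -0.81 (95% interval -1.34 to -0.28) and LHCB4.1 by 0.22 (interval 0.04 to 0.39), neither called. The catalases CAT3 and CAT1, which remove hydrogen peroxide, rose by 1.45 (SE 0.15, adjusted p = 4.44e-06) and 1.41 (SE 0.14, adjusted p = 4.59e-06). CAT3 lay at 11.33, 11.15 and 11.09 at DEA 4 h and 9.80, 9.58 and 9.83 in NA, with no overlap. The superoxide dismutase CSD1 (difference -0.14, 95% interval -0.49 to 0.22) was not called.

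Jasmonate genes were lower in the 4 h plants where they were called. Of 28 jasmonate genes, 8 were measured, 0 rose and 2 fell, with 4 at an unadjusted p under 0.05, 0 by limma treat, and a median of -0.57, and all 8 had been named only through the study's list. LOX4, a lipoxygenase of jasmonate synthesis, fell to 7.87, 7.47 and 7.99 in the DEA 4 h arrays, against 9.30, 10.27 and 10.53 in the NA arrays (difference -2.26, SE 0.51, adjusted p = 0.00505). JAZ5, a repressor of the pathway, differed by -1.70 (SE 0.47, adjusted p = 0.0189), and its adjusted p was 0.079 without DEA 4 h replicate 2 and 0.089 without NA replicate 3. LOX1 (difference -0.59, 95% interval -0.94 to -0.25) and OPR3 (0.35, interval -0.16 to 0.85) were not called. JMT, which methylates jasmonate, was chosen after its values were seen and had 8.01, 7.32 and 8.03 at DEA 4 h against 10.26, 10.39 and 10.21 in NA (difference -2.50, SE 0.34, adjusted p = 8.21e-05). The members of the list had a median of -1.41 in CA against NA, with a range of -2.13 to -0.72.

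ERF11, CMPG1 and PUB22 were chosen after their values were seen, for their fall. ERF11, an ethylene response factor that represses transcription, had 6.47, 5.60 and 6.42 in DEA 4 h arrays against 9.51, 8.13 and 9.55 in NA arrays (difference -2.90, SE 0.66, adjusted p = 0.00526). CMPG1, a ubiquitin ligase of the plant U-box type, had 4.95, 5.51 and 5.17 at DEA 4 h against 7.20, 8.20 and 8.40 in NA (difference -2.73, SE 0.57, adjusted p = 0.00285), and the related PUB22 fell by 2.20 (SE 0.53, adjusted p = 0.00783). The CA means of ERF11, CMPG1 and PUB22 were 6.64, 5.39 and 5.73. Calmodulin-like genes were grouped after their values were seen. Of 7 measured, 4 fell and 0 rose, against 2.88% lower among all probe sets analysed. CML41 had 6.59, 6.07 and 6.49 at DEA 4 h and 8.34, 7.26 and 9.04 in NA (difference -1.83, SE 0.52), CML37 had 5.36, 5.61 and 5.54 at DEA 4 h and 7.34, 6.85 and 7.80 in NA (difference -1.83, SE 0.50), and CML23 had 6.44, 5.90 and 6.54 at DEA 4 h and 9.02, 6.99 and 8.38 in NA (difference -1.83, SE 0.56). CML41 lost the call without DEA 4 h replicate 2, NA replicate 1 or NA replicate 3 (adjusted p up to 0.113) and CML37 without DEA 4 h replicate 1 or NA replicate 3 (up to 0.0793). CML23 lost it without any array but NA replicate 2 (up to 0.132). TCH3, a touch-induced calmodulin-like protein, differed by -1.02 (SE 0.22), and by -1.0 to -0.91 without DEA 4 h replicate 3, NA replicate 2 or NA replicate 3.

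Defence genes were called in both directions. Of 29 listed, 8 were measured, 2 rose and 2 fell, and these 4 had all been named only through the study's list. PR1, a marker of salicylic acid responses, rose to 9.30, 8.93 and 8.80 in the DEA 4 h arrays, against 6.98, 6.75 and 7.24 in the NA arrays (difference 2.02, SE 0.36, adjusted p = 0.000931), with means of 9.14 in CA and 9.32 at 24 h. PR5 lay at 12.07, 11.59 and 11.45 at DEA 4 h and 10.96, 10.85 and 10.74 in NA (difference 0.85, 95% interval 0.50 to 1.2, not called). NIMIN1, which binds the salicylic acid receptor NPR1, differed by 1.16 (SE 0.32, adjusted p = 0.0186), and lost the call without any of 4 arrays (DEA 4 h replicates 2 and 3, NA replicates 2 and 3), with adjusted p up to 0.0952. CYP71A13, an enzyme of camalexin synthesis, fell to 7.12, 6.98 and 7.34 at DEA 4 h, against 10.50, 11.03 and 10.01 in NA (difference -3.36, SE 0.38, adjusted p = 1.47e-05), and WRKY33, the factor that induces camalexin synthesis, to 9.20, 8.96 and 9.32 at DEA 4 h, against 10.94, 10.79 and 11.48 in NA (difference -1.91, SE 0.43, adjusted p = 0.00505). Both were low in CA as well, at 6.74 and 9.44.

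Of the remaining hormone lists, ethylene had 6 genes measured of 26, of which 1 rose and 0 fell, with 2 at an unadjusted p under 0.05 and 1 by limma treat. ACS4, an enzyme that makes the ethylene precursor, had 7.42, 8.13 and 8.28 in the DEA 4 h arrays against 6.10, 5.25 and 5.63 in the NA arrays (difference 2.28, SE 0.42, adjusted p = 0.00124). ACO1, the next enzyme, overlapped between the groups (difference 0.76, 95% interval -0.04 to 1.56). Abscisic acid had 3 measured of 32. ABF1 rose, as given above, and HAB1, a phosphatase that blocks the signal, fell to 8.51, 8.54 and 8.77 at DEA 4 h, against 10.09, 9.83 and 10.11 in NA (difference -1.40, SE 0.19, adjusted p = 6.91e-05). ABF2 differed by -0.87 (95% interval -1.18 to -0.56) and was not called, with -1.04 (adjusted p = 0.000142) without DEA 4 h replicate 3. Of 22 cytokinin genes 3 were measured and 0 called, with 1 at an unadjusted p under 0.05 and 0 by limma treat, and the response regulators ARR15 (-0.66, interval -1.35 to 0.02) and RR16 (0.67, interval 0.04 to 1.29) lay on either side of 0.

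Of 26 genes that respond to low oxygen 10 were measured, 3 rose and 0 fell, with 6 at an unadjusted p under 0.05 and 0 by limma treat. The median was 0.76, against 0.03 over all probe sets analysed, of which 2.2% rose and 2.88% fell. The arrays of the groups did not overlap for 6 of the 10, against 35.2% of all probe sets. PDC2, a pyruvate decarboxylase of fermentation, had 9.66, 9.48 and 9.91 in DEA 4 h arrays against 8.71, 8.31 and 8.59 in NA arrays (difference 1.14, SE 0.19, adjusted p = 0.000483). AT5G10040 was at 6.93, 4.84 and 6.45 at DEA 4 h and 3.65, 3.66 and 3.32 in NA (difference 2.53, SE 0.67, adjusted p = 0.0136), with adjusted p of 0.069 without DEA 4 h replicate 1 and 0.051 without DEA 4 h replicate 3. AT3G10040, a transcription factor, differed by 1.01 (SE 0.31, adjusted p = 0.0301) and lost the call without any of 4 arrays (DEA 4 h replicates 1 and 3, NA replicates 1 and 3), with adjusted p up to 0.138. ADH1, the alcohol dehydrogenase that follows PDC2, was at 9.90, 9.10 and 9.23 at DEA 4 h and 8.91, 8.91 and 8.06 in NA (difference 0.78, 95% interval -0.08 to 1.64, not called).

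Lipid and wax genes were few. Of 23 listed, 4 were measured, 1 rose and 1 fell. WSD1, a wax ester synthase, fell to 7.37, 7.85 and 8.83 in the DEA 4 h arrays, against 10.20, 9.83 and 9.94 in the NA arrays (difference -1.97, SE 0.36, adjusted p = 0.00115). ADS1, an acyl desaturase, differed by 1.76 (SE 0.49, adjusted p = 0.0187), and lost the call without DEA 4 h replicate 2, DEA 4 h replicate 3 or NA replicate 1, with adjusted p up to 0.0922. KCS1, an elongase of very long chain fatty acids, lay at 10.13, 10.60 and 10.38 at DEA 4 h and 11.08, 11.42 and 11.51 in NA, just short of the threshold at -0.97 (95% interval -1.48 to -0.46), and KCS8, another elongase, at 1.2 (interval 0.30 to 2.10) was not called. Without DEA 4 h replicate 2 or NA replicate 1 KCS1 passed, with differences of -1.09 and -1.10. The proline list had 1 measured member of 6, AT5G38710, which fell to 5.89, 6.15 and 6.02 at DEA 4 h, against 7.73, 7.72 and 8.12 in NA (difference -1.84, SE 0.27, adjusted p = 0.000149).

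Ribosome biogenesis genes lay close to the NA level. Of 37 listed, 25 were measured and 0 were called, with 5 at an unadjusted p under 0.05, 1 after adjustment and 0 by limma treat. Their differences ran from -0.33 to 0.35 with a median of -0.03, and the 95% intervals of all 25 lay between -0.67 and 0.56, so a change beyond the threshold was outside the interval of each. NUC-L1, a nucleolin of rRNA processing and the highest of them, lay at 11.40, 11.42 and 11.45 in the DEA 4 h arrays and 11.10, 11.09 and 11.03 in the NA arrays (difference 0.35, 95% interval 0.14 to 0.56). Its CA mean was 12.16. The same 25 genes had differences from 0.16 to 1.51 between CA and NA, with a median of 0.73. Of 36 glucosinolate genes 6 were measured and 0 called, with 0 at an unadjusted p under 0.05 and 0 by limma treat, and the differences ran from -0.33 to 0.46. Of 29 cell cycle and DNA replication genes 4 were measured and 0 called, with 3 at an unadjusted p under 0.05 and 0 by limma treat, and the D-type cyclin CYCD1;1 was at -0.53 (interval -0.84 to -0.22).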

How the data were processed

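Rosette RNA of 7 groups with 3 arrays each was hybridised to Affymetrix Arabidopsis Gene 1.0 ST arrays. The authors normalised the intensities with RMA in RobiNA (version and library files are not given in the sources used here) and deposited log2 values, 1 per probe set and array. RMA sets the probe intensities of the arrays to 1 common distribution before they are summarised per probe set. A shift of all transcripts in 1 direction can therefore not be seen. A block of 7079 probe sets at the head of the table, with no gene in the platform annotation and a median level of 6 against 8.19 for the rest, was set apart, which left 31329.

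The 21 arrays were fitted in 1 linear model with a mean per group (limma 3.58.1 in R 4.3.3, lmFit and eBayes, 14 residual and 2.69 prior degrees of freedom), with the contrast DEA 4 h minus NA and Benjamini-Hochberg adjustment. On simulated data for this contrast, 95% of 100 probe sets changed by 1.5 and 99% of 100 changed by 3 (log2) were called, none in the wrong direction. No 2 array columns were identical, and 0 columns of other series were used.

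Gene names come from the platform annotation, from the study's list of regulated transcripts (used for names only, held here in part with 1997 entries, and otherwise holding the authors' own fold changes, which were not used) and from RefSeq symbols. Of 17481 probe sets in the platform annotation, 759 carried several genes and were left out, and 13925 of the probe sets analysed had no gene here. Members, the 33 gene lists (831 genes) and alternatives were chosen with earlier results of these data known. Named were the 15 largest called differences in each direction whose arrays did not overlap between the groups. Also named were up to 4 called list members in the main direction, 2 in the other and up to 2 not called. Of 49 genes looked up because the study discusses them, 19 were measured here. Those not described above were WLIM2a (2.03, SE 0.13) and BBX27 (1.28, SE 0.31), both called higher, and FBH3 (-0.60, SE 0.23), not called. The call of BBX27 was lost in a fit of the 6 arrays alone (adjusted p = 0.0717) and by limma treat. All further names were chosen after their values were seen. Alternatives were a fit of the 6 arrays alone, the replicate number as a block, each array left out, the whole table, cyclic loess, a median shift, a filter on dim probe sets, eBayes with trend and robust, array weights, adjustment over members alone and limma treat. No promoter or protein sequences were at hand, and none are given. The number of arrays limits the precision.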

Additional observations from a re-analysis of the deposited data

Results flagged for a closer look

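Between 2 h and 4 h of deacclimation the level of several members changed in the fit's own test of that step, so their distance from NA at 4 h is not that at 2 h (both times share the NA arrays). The difference of DEA 4 h minus DEA 2 h was 3.35 for AT1G56300, 2.09 for AT3G62550, 2.02 for AT1G17665, 1.99 for AT2G15880, 1.93 for RTFL21, 1.90 for MEE14, 1.89 for AT4G16146 and 1.87 for AT4G33980. It was 1.41 for DREB2C, 1.34 for MYBL2, 1.11 for CCL, 1.03 for GRP7 and 1.03 for Fes1B. It was -2.68 for LHY and -1.93 for AT1G26790, both of which lay between the NA and DEA 4 h levels at 2 h.

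Between 4 h and 6 h the same test was passed by 5 of the genes named. The difference of DEA 6 h minus DEA 4 h was 3.78 for COR27, 2.65 for AT4G33980 and 2.38 for FKF1. It was -1.34 for LHY and -1.67 for CCA1. The DEA 4 h arrays of COR27 overlapped NA, while its means in CA (9.73) and at 6 h (9.44) were far above the NA arrays.

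In the 7079 probe sets at the head of the table, which have no gene here and entered only the alternative fit of the whole table, 101 were higher and 23 lower at DEA 4 h than in NA. Their median difference was 0.19, against 0.0278 for the probe sets analysed.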

How the results depend on the processing

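No call of a probe set turned direction under any of the 16 alternatives. The counts of 690 higher and 901 lower probe sets moved by more than 1.5 times under a fold test with limma treat (373 higher and 389 lower) and, for the higher ones, when dim probe sets were left out (442 higher, with 16428 tested and 658 lower). For the single-gene probe sets the same settings gave 234 higher and 262 lower, and 273 higher. Leaving out each array in turn gave 648 to 736 higher and 718 to 985 lower probe sets, and 394 to 457 higher and 454 to 634 lower single-gene probe sets. Cyclic loess (616 and 996), a shift of all arrays to 1 median (631 and 975), the whole table (769 and 882) and a fit of only the DEA 4 h and NA arrays (584 and 801) kept the excess of lower probe sets, with a share of higher ones between 38.2% and 46.6% against 43.4%. Of the 131 called genes named in the text or looked up for it, 38 lost the call under at least 1 alternative, 27 of them when an array was left out and 10 by the fold test alone, and 93 kept it. Of 63 not called, 11 became called. None turned. With the replicate number as a block, 708 probe sets were higher and 934 lower (431 and 607 single-gene), and BIP3 (1.26, adjusted p = 0.0402) and KCS8 (1.2, adjusted p = 0.0423) became called. Whether the samples pair by replicate number cannot be told from 3 arrays a group. The deviations of same-numbered arrays correlated at 0.165, -0.0533 and -0.0522. DEA 4 h replicates 2 and 3 correlated best with NA replicates 3 and 2 (0.165 and 0.105). There were 3 arrays a group and a median SE of 0.19. Calls with a difference near the threshold of 1 or with a large SE are the ones that move with the setting. How the SE depends on the level was not tested.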

Other observations

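Families were grouped by gene symbol after the values were seen and are given as counts with no test. Of 7 phloem lectin-like PP2 genes measured, 4 fell and 0 rose, led by PP2-A5 at -3.29. Of 6 NAC factors 3 fell, NAC003 (-1.75), NAC032 (-1.46) and NAC036 (-1.22), and NAC004 (1.94) rose. Of 9 small peptides of the RTFL and DVL kind 4 rose, RTFL21 (3.70), RTFL13 (1.77), RTFL14 (1.62) and DVL21 (1.01), and ROT4 (-1.41) fell. Of 11 plant U-box ubiquitin ligases 3 fell and 1 rose. Larger families lay near 0 as a whole: 57 glycosyltransferases of the UGT kind had a median of -0.01 with 2 higher and 4 lower, and 41 cytochromes P450 a median of 0.01 with 4 higher and 2 lower. Of 15 SWEET sugar transporters, SAG29 and SWEET2 (-1.15) fell. The comparable figure over all probe sets analysed was a median of 0.03 with 5.08% called.

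The 3 DEA 4 h arrays differed among themselves in a few named genes. DEA 4 h replicate 2 had the highest level of IAA29 (11.17, against 9.16 and 9.54 in replicates 1 and 3), HFR1 (10.62, against 7.65 and 9.50), YUC9 (7.97, against 4.53 and 7.15), MIOX2 (11.75, against 10.26 and 10.66) and DYL1 (10.72, against 9.80 and 8.76). It had the lowest level of HSFA2 (6.27, against 9.06 and 8.93) and AT5G10040 (4.84, against 6.93 and 6.45). In the later DEA 6 h group the mean of IAA29 was 10.64, of HFR1 9.81 and of HSFA2 6.16. Other named genes went the other way. AT4G33980 was lowest in DEA 4 h replicate 2 (7.75, against 7.89 and 7.87), and its DEA 6 h mean was 10.49. AT1G56300 was lowest there too (11.33, against 11.99 and 11.86), with a DEA 6 h mean of 12.35. The same held for COR27, with a DEA 6 h mean of 9.44. Whether DEA 4 h replicate 2 as a whole lay nearer to DEA 6 h was not tested. Over all probe sets the SD of the array's deviation from its group mean, 0.238, was within the range of the other DEA 4 h arrays, 0.218 and 0.249.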
